A study of Bos taurus with 54 samples.

Results

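Baseline blood expression was compared between 2 groups of calves in the Takara libraries taken before heat exposure. The groups were set by the sample number in the library titles: 7 libraries carried the lower run of numbers, 89 to 96 (group 1, animals 12, 15, 18, 19, 23, 40 and 41), and 6 carried a run that started higher (group 2, animals 3, 7, 14, 16, 32 and 36). These 13 libraries were part of 54 in the series. All came from male Holstein calves in climate-controlled rooms, bled at 6AM under thermoneutral conditions, and each calf gave 1 library. The same 2 groups exist in 3 further sets: the Lexogen libraries of the 6AM blood (7 against 6), and the Takara (7 against 7) and Lexogen (8 against 6) libraries of blood drawn at 6PM after 12 h of heat stress. The labels do not say what the 2 runs of sample numbers stand for, so a cohort of calves and a batch of bleeding, RNA isolation or handling cannot be told apart, and the ages of the calves were not given in the sources used here. The labels and the study's design table also differ over time: with calves taken in the order of their animal numbers, the rows of the calves with unequal sets of libraries match the labels only if the table's columns for thermoneutral and heat-stressed blood are exchanged. The study's methods likewise describe more blood samples before heat than after it, where the labels hold more calves at 6PM than at 6AM. Times and conditions here follow the labels, and which source has the times right was not settled.

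Whole blood mRNA is a mixture. Neutrophils, lymphocytes and monocytes give most of it, platelets carry megakaryocyte transcripts without a nucleus, and red cells here were lysed before the pellet went into Trizol. Both kits read the 3′ ends of transcripts, Takara SMART-Seq v4 3′ DE after template-switching amplification and Lexogen QuantSeq 3′ after oligo-dT and random priming. In whole blood, fewer cells of a type and less RNA per cell cannot be told apart. The defining genes of blood were present: the leukocyte gene PTPRC was at 393 to 562 CPM (counts scaled to library size, with edgeR's TMM correction for composition) in the 13 libraries, the neutrophil receptor CSF3R at 326 to 2178, the T cell gene CD3E at 117.2 to 262, the B cell gene MS4A1 at 226 to 391 and the red cell globin HBB at 506 to 3683.

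Counts on genes ranged from 8051162 to 20188246 in group 1 and from 5140595 to 12300441 in group 2. The group 2 libraries of animals 16, 32 and 36 stood apart before any gene was tested: 42.1 to 47.2% of their filtered reads fell on genes, against 58.1 to 64.0% in the other 10 libraries, and 20.6 to 23.5% were unmapped. Their counts on genes were also the lowest 3, from 5140595 to 7404712. Of 20 measures of library composition, 7 differed between the groups at an adjusted p under 0.05 (two-sided exact permutation tests over 1716 arrangements, Benjamini-Hochberg over the 20), and 4 to 9 when any 1 library was left out (4 without any one of animals 15, 18, 40 and 41). Mitochondrial rRNA took 1.69 to 2.90% of counts on genes in group 1 and 3.23 to 4.75% in group 2, without overlap (exact permutation p = 0.000583, the smallest this design allows, adjusted p = 0.00777). All rRNA genes together took 2.63 to 5.23% in group 1 and 5.06 to 12.4% in group 2 (exact permutation test, adjusted p = 0.00777). In the Lexogen libraries of the same blood neither share passed (exact permutation tests, p = 0.717 and p = 0.245). Reads on no gene averaged 13.8% of filtered reads in Takara group 1 and 17.2% in group 2 (exact permutation test, adjusted p = 0.021). In Lexogen they averaged 23.96 and 27.77% (permutation p = 0.0326, adjusted p = 0.147). The share on genes was lower in group 2 in Lexogen (permutation p = 0.0291). In Takara its mean was also lower in group 2, without passing (permutation p = 0.101). Without animals 16, 32 and 36 the Takara mean was 1.26 percentage points higher in group 2 (permutation p = 0.342). The share on mitochondrial protein genes was lower in group 2 in Lexogen (permutation p = 0.0169) but not in Takara. No Lexogen measure passed after adjustment. Without animals 16, 32 and 36 none of the 20 measures passed the adjusted threshold, with 5 at an unadjusted p under 0.05 and a smallest possible p of 0.00833, while mitochondrial rRNA still did not overlap (3.23 to 4.11% in the 3 remaining libraries of group 2). Of 70 genes examined without these 3 libraries, all 70 kept their sign and 23 stayed called. The 70 had been called with all libraries and the other 10 libraries are shared by both fits, so kept signs were likely in advance.

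**Figure D1:**
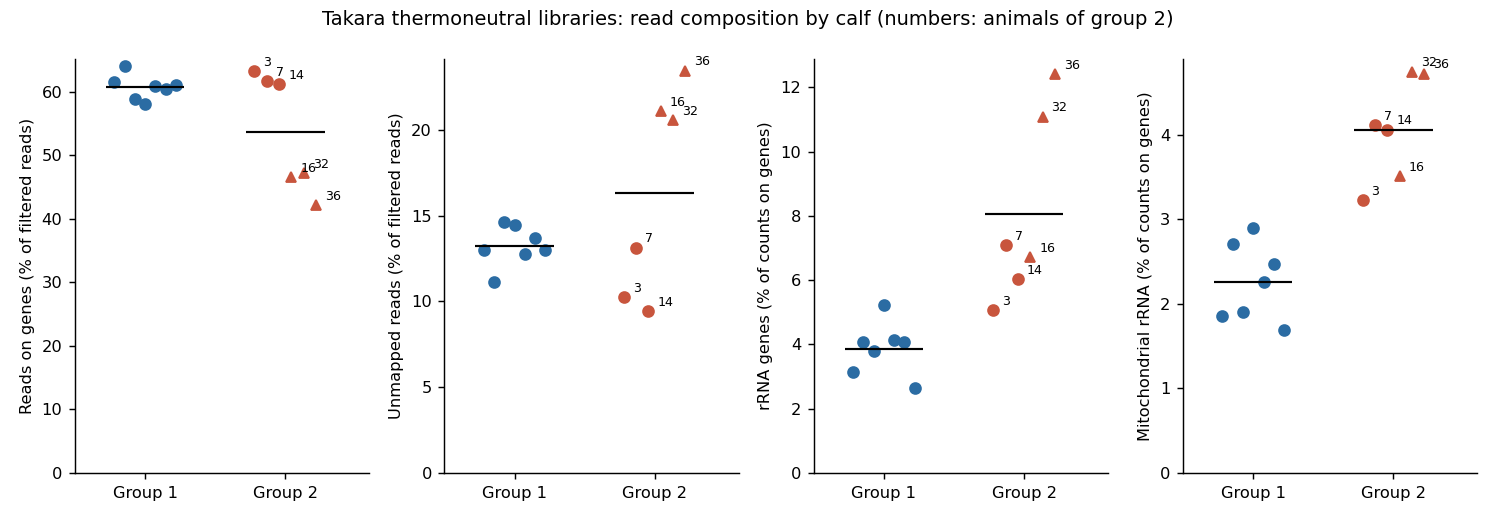
Share of filtered reads on genes, share unmapped, and shares of counts on genes taken by all rRNA genes and by mitochondrial rRNA, in percent, for the 7 libraries of group 1 (blue) and 6 of group 2 (red); lines are group means, triangles are animals 16, 32 and 36. Those 3 libraries held 42.1 to 47.2% of reads on genes, and mitochondrial rRNA was above 3.2% in every group 2 library and at or below 2.90% in every group 1 library.

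Many genes differed between the Takara 6AM libraries of the groups, though group 2 was not uniform. Over the genes tested, animals 3 and 7 correlated less with their own group (mean Spearman 0.953 and 0.949) than with group 1 (0.963 and 0.963). Animal 16 was nearly level (0.956 and 0.955). The other libraries of group 2, and all of group 1, correlated more with their own group. Of 12977 genes tested with edgeR's quasi-likelihood test, 1055 passed an adjusted p of 0.05 (8.13% of genes tested): 658 were higher in group 2 (5.07%) and 397 lower (3.06%). The median log2 difference over all genes was 0.00, with a median standard error of 0.21. A change of 2-fold or more was reached by 224 of the higher and 52 of the lower genes. Among the called genes, the libraries of the groups did not overlap for 206 of the 658 higher and 147 of the 397 lower. The share over all genes tested was not counted. These genes were called from the same libraries, so a lack of overlap, here or below, is not separate support. Without animals 16, 32 and 36, 135 genes were called (99 higher and 36 lower), of which 121 were among the 1055. Leaving out 1 library at a time gave 503 to 1497 calls. The count fell by over 1.5 times without animal 36 (503), 41 (568), 32 (589), 12 (625), 40 (649), 15 (656) or 14 (679). Scaled by total counts alone, the split turned to 408 higher and 851 lower, with the median gene at -0.12, so directions below are relative to the median gene.

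The gene with the smallest p was MBP, which encodes myelin basic protein and, through longer golli transcripts, is also expressed in blood cells (chromosome 24, 2224135 to 2328579, ARS-UCD2.0). MBP was at 15.4, 21.8 and 25.7 CPM (lowest, median, highest) in group 1 and at 56.5, 82.3 and 116.9 in group 2. All 6 calves of group 2 were above all 7 of group 1. The log2 difference was 1.93 ± 0.17 (SE; edgeR, adjusted p = 7.09e-05), and it was called in each of the alternatives run. CMIP, an adaptor protein of T cell signalling, was at 34.5, 41.2 and 44.6 CPM in group 1 and 61.3, 108 and 130 in group 2 (log2 difference 1.32, edgeR adjusted p = 0.000737). TRA2B, a splicing regulator, was at 140, 169 and 197 CPM in group 1 and 275, 354 and 461 in group 2 (log2 difference 1.07, edgeR adjusted p = 0.00078). Neither gene overlapped between the groups.

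The calls among monocyte genes were all lower in group 2. Of 16 tested genes of the monocyte list, 15 had a negative difference, 4 passed the test, all lower (3.06% of all genes were called lower), and the median was -0.61 beside 0.00 over all genes. CSF1R, the receptor for the growth factor that maintains monocytes (chromosome 7, 61380050 to 61411558), was at 53.8, 105 and 134 CPM in group 1 and at 18.1, 44.98 and 61.3 in group 2. Only the lowest library of group 1 lay within the range of group 2. The log2 difference was -1.25 ± 0.27 (SE; edgeR, adjusted p = 0.0137). CD14, the co-receptor for bacterial lipopolysaccharide, was at 44.8, 71.5 and 105 CPM against 13.3, 37.3 and 56.4 (log2 difference -0.99, edgeR adjusted p = 0.0442). CD163, the haemoglobin scavenger receptor, was at 16.3, 30.1 and 60.7 CPM against 9.85, 15.3 and 22.7 (log2 difference -1.14, edgeR adjusted p = 0.0216). CCR2, the chemokine receptor that brings monocytes out of the marrow, was at 9.29, 12.3 and 16.7 CPM against 4.37, 5.89 and 11.1 (log2 difference -0.93, edgeR adjusted p = 0.0196). In each of these 3 the groups overlapped at their edges. Summed over the list, monocyte genes stood at 1811 to 4379 CPM in group 1 and 1129 to 3460 in group 2.

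LYZ, encoding lysozyme, had a difference of -1.16 without passing the test (edgeR, adjusted p = 0.0547). The count of monocyte calls moved with single libraries and with the processing: it was 2 without animal 36, 7 without animal 7 and 8 without animal 23, 9 with total counts as library size, 8 with DESeq2 and 2 with the unmapped share as a covariate. It was 0 without animals 16, 32 and 36, where the median of the list was -0.41, and 0 when the Takara library of animal 20, a calf of the higher run with 6PM blood alone by the labels, was added to group 2 (median -0.12).

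The calls among platelet genes were all higher in group 2. Of 13 tested genes of the platelet list, 5 passed, all higher (5.07% of all genes were called higher), with a median of 0.64, and 11 of the 13 differences were positive. PF4, the platelet chemokine of the alpha granule (chromosome 6, 88924248 to 88925219), was at 1228, 1441 and 2823 CPM in group 1 and at 2480, 3019 and 6526 in group 2. The highest library of group 1 lay above the lowest of group 2, and the highest of group 2 was animal 14. The log2 difference was 1.05 ± 0.25 (SE; edgeR, adjusted p = 0.0209). TUBB1, the tubulin of the platelet marginal band, was at 2.38, 3.78 and 7.32 CPM against 4.35, 11.9 and 21.7 (log2 difference 1.52, edgeR adjusted p = 0.0195). TREML1, a receptor of platelet granules, was at 32.3, 50.4 and 90.7 CPM against 63.7, 93.9 and 151 (log2 difference 0.89, edgeR adjusted p = 0.0337). MYL9, a myosin light chain of the platelet cytoskeleton, was at 16.6, 26.9 and 41.6 CPM against 18.7, 53.0 and 153 (log2 difference 1.37, edgeR adjusted p = 0.0363). All 4 overlapped between the groups.

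The platelet list summed to 2451 to 4399 CPM in group 1 and 3668 to 7934 in group 2. Its calls numbered 2 without any one of animals 15, 19, 36, 40 and 41, and 3 without any one of animals 14, 16, 23 and 32. They numbered 3 with total counts as library size and 2 with the unmapped share as a covariate. There were 0 calls without animals 16, 32 and 36 together (median 0.53), and 0 with animal 20 added to group 2 (median 0.62). PPBP, another platelet chemokine, did not pass (log2 difference 0.51, edgeR adjusted p = 0.343).

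**Figure D2:**
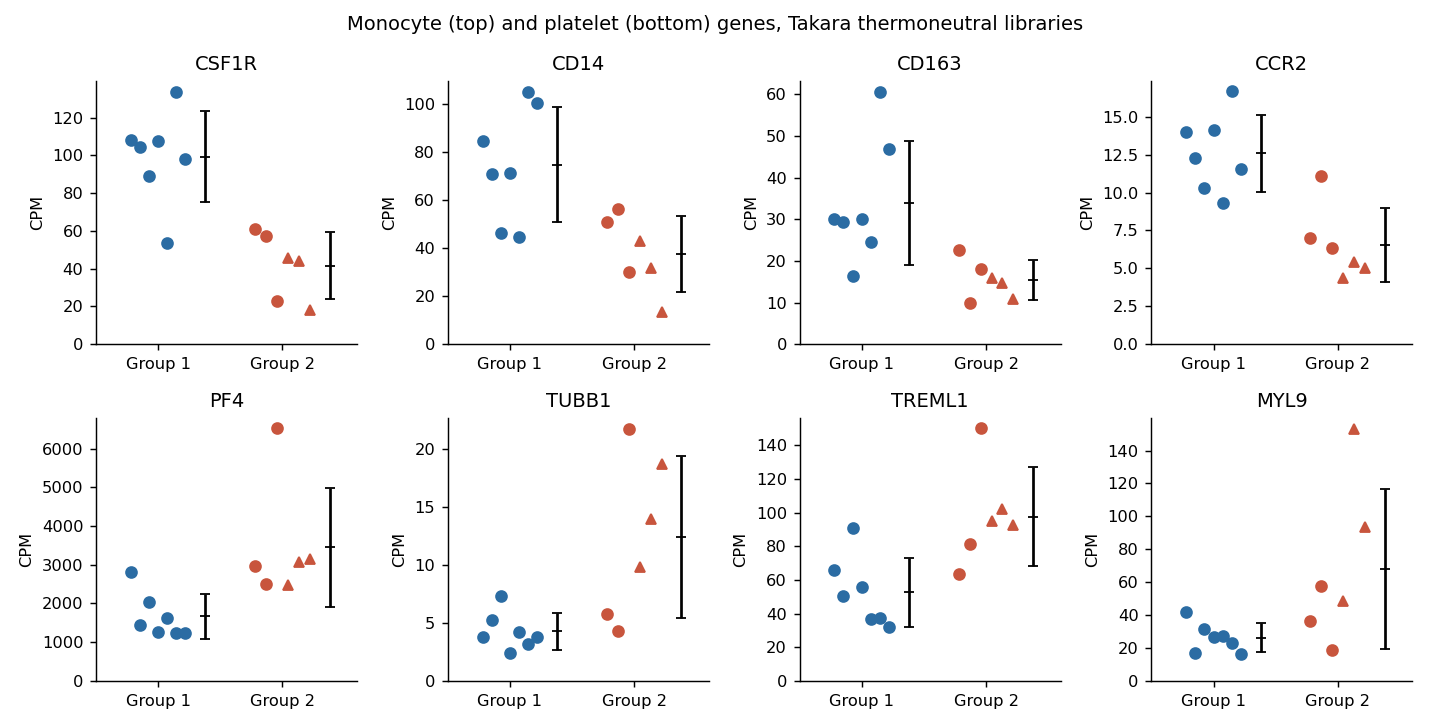
CPM of 4 monocyte genes (top) and 4 platelet genes (bottom) in each Takara 6AM library, group 1 in blue and group 2 in red, triangles for animals 16, 32 and 36; black marks are group means with SD. The 4 monocyte genes sit lower in group 2 (CSF1R 18.1 to 61.3 against 53.8 to 134 CPM) and the 4 platelet genes higher (PF4 2480 to 6526 against 1228 to 2823 CPM), with overlap at the edges.

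Histones package DNA, H1 histones being the linkers between nucleosomes, and most genes of the clusters are transcribed in S phase into mRNAs that end in a stem-loop in place of a poly(A) tail. Of 62 histone genes tested, 11 passed, all higher in group 2 (5.07% of all genes were called higher). A positive difference was found in 54, and the median was 0.34. H1-4 (chromosome 23, 31795624 to 31796822) was at 187, 254 and 267 CPM in group 1 and at 349, 597 and 681 in group 2. Every calf of group 2 was above every calf of group 1. The log2 difference was 1.24 ± 0.15 (SE; edgeR, adjusted p = 0.000737). H1-12 was at 27.2, 34.03 and 47.5 CPM against 52.0, 70.1 and 97.7 (log2 difference 1.02, edgeR adjusted p = 0.00214). H1-3 was at 129, 171 and 218 CPM against 256, 309 and 417 (log2 difference 0.95, edgeR adjusted p = 0.00268). H2AC20, which encodes an H2A core histone (chromosome 3, 20724727 to 20725185), was at 95.4, 108 and 116.7 CPM against 141, 183 and 237 (log2 difference 0.83, edgeR adjusted p = 0.00258). In none of these did the groups overlap.

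The 3 H1 genes lie between positions 31730229 and 31796822 of chromosome 23. Histone genes are close copies, so reads shared between them were not counted and single-gene levels are uncertain to that extent. The histone calls were 10 to 15 when any 1 library was left out, 11 with the unmapped share as a covariate, 5 without animals 16, 32 and 36 and 3 with animal 20 added; the 4 genes above stayed called without the 3 libraries. MCM3, a subunit of the replicative helicase, was the only gene of 25 tested in the cell cycle list to pass, and it was lower in group 2 (log2 difference -0.47, edgeR adjusted p = 0.0424).

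In the Takara 6AM libraries, RNA classes other than mRNA leaned the same way. Over all genes tested, 5.07% were called higher in group 2 and 3.06% lower. Of 53 small nuclear RNA genes tested, 12 were called higher and 0 lower (median difference 0.86), of 62 small nucleolar RNA genes 10 higher and 1 lower (0.68), and of 6 rRNA genes 4 higher and 0 lower (1.02). Long non-coding RNAs gave 76 higher and 5 lower of 917 (0.18). Protein-coding genes gave 545 higher and 391 lower of 11801, with a median of -0.01. The small RNA genes come in many near-identical copies and their single rows are uncertain. The snRNA calls fell to 3 without animal 36, to 4 without any one of animals 12, 32 and 41, to 5 without animal 15 and to 7 without animal 18, and there were 0 without animals 16, 32 and 36 together. The lncRNA calls fell to 51 without animal 36 and to 53 without animal 14, the snoRNA calls to 7 without animal 41, and the rRNA calls to 2 without any one of animals 12, 32, 36, 40 and 41. Without those 3 libraries 21 lncRNA, 2 snoRNA and 1 rRNA gene were called. With the unmapped share as a covariate the calls were 3 for snRNA (median 0.53), 2 for rRNA, 9 for snoRNA and 55 for lncRNA. DESeq2 called 22 snoRNA and 135 lncRNA genes. The rRNA share of the same libraries moved with these classes as well, and its part in them was not tested.

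The 4 long non-coding RNAs with the smallest p were all free of overlap. LOC112448016 was at 15.9, 22.2 and 27.2 CPM in group 1 and 31.1, 83.7 and 117.2 in group 2 (log2 difference 1.90, edgeR adjusted p = 0.00119). LOC132345101 was at 17.1, 34.3 and 41.2 CPM against 65.4, 105 and 169 (log2 difference 1.76, edgeR adjusted p = 0.00128). LOC104973760 was at 7.42, 9.84 and 13.1 CPM against 22.98, 30.8 and 49.9 (log2 difference 1.72, edgeR adjusted p = 0.000737). LOC132342211, at 37.1, 61.9 and 68.8 CPM against 94.9, 152 and 231, had the smallest difference of these (1.46, edgeR adjusted p = 0.00144).

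The share of calls also varied with gene length. Of the 2587 genes with the longest span on the genome (71357 to 2323126 bases), 10.9% were called higher in group 2 and 1.16% lower, with a median difference of 0.17. In the other 4 of the 5 length classes of equal size, 2.71 to 4.83% were called higher and 2.59 to 4.37% lower, and the medians lay between -0.08 and 0.02. MBP and MAML2, described here, both belong to the longest class.

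**Figure D3:**
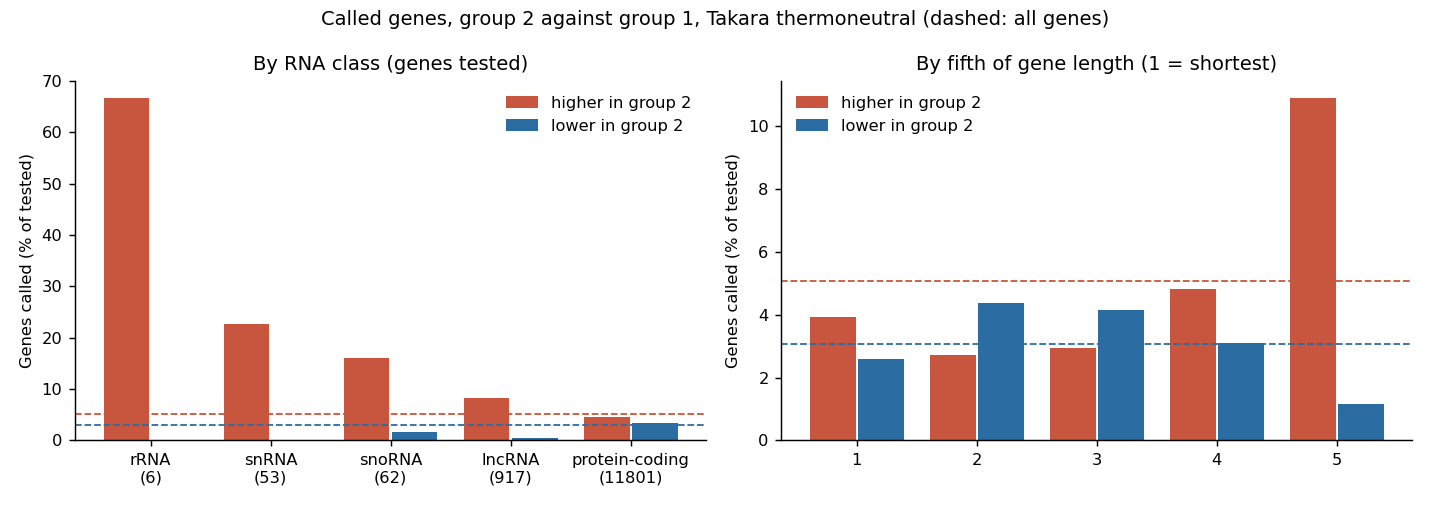
Percent of tested genes called higher (red) or lower (blue) in group 2, by RNA class with the number tested in brackets, and by length class (5 of equal size) from shortest to longest; dashed lines are the shares over all genes, 5.07% and 3.06%. Small nuclear, small nucleolar and ribosomal RNA genes and the longest class (10.9%) stood above the line for higher calls.

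Among the 12 largest called increases of named genes at 5 CPM or more, 3 encode mitochondrial proteins. The largest was ATP8, a mitochondrial gene for a subunit of ATP synthase, at 6.88, 8.29 and 26.4 CPM in group 1 and 14.9, 67.7 and 207 in group 2 (log2 difference 2.95, edgeR adjusted p = 0.00587). ATP8 overlaps ATP6 on the mitochondrial genome and reads on the overlap are left out as ambiguous, so its level is uncertain. Of the 13 protein genes of the mitochondrial genome, 5 passed, all higher (5.07% of all genes were called higher). The complex I subunit gene ND5 was at 143, 163 and 180 CPM against 196, 260 and 264 (log2 difference 0.60, edgeR adjusted p = 0.00397). ND3 and ND1 differed by 0.86 and 0.75 (edgeR, adjusted p = 0.00454 and 0.0135), and ND5, ND3 and ND1 did not overlap between the groups. In Takara 11 of the 13 differences were positive (median 0.36), and in the Lexogen libraries of the 6AM blood 12 of 13 were negative (median -0.37). The calls numbered 3 with animal 20 added to group 2.

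Of 81 nuclear genes of the respiratory chain tested, 2 passed, a smaller share than the 5.07% of all genes called higher, and in Lexogen 62 of 81 differences were negative (median -0.34). The calls were ATP5F1E, for the epsilon subunit of ATP synthase (log2 difference 0.78, edgeR adjusted p = 0.00172), and ATP5IF1, for the inhibitor of that enzyme (0.56, adjusted p = 0.0452). PET117, which encodes an assembly factor of cytochrome c oxidase, was at 1.34, 2.45 and 3.25 CPM in group 1 and 4.35, 10.0 and 14.7 in group 2 (log2 difference 2.08, edgeR adjusted p = 0.00176). CLYBL, a mitochondrial citramalyl-CoA lyase, was at 1.91, 2.43 and 2.73 CPM against 4.64, 8.85 and 10.2 (log2 difference 1.74, edgeR adjusted p = 0.00078). Neither of the last 2 overlapped between the groups.

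EXD1, known from the germ-line piRNA pathway, was at 1.60, 2.67 and 3.03 CPM in group 1 and 3.50, 14.7 and 29.6 in group 2 (log2 difference 2.698, edgeR adjusted p = 0.00258). The kinase gene VRK2 was at 0.265, 1.09 and 2.50 CPM against 3.42, 5.28 and 9.21 (log2 difference 2.10, edgeR adjusted p = 0.00756). MAML2, a co-activator of Notch signalling (chromosome 15, 13888037 to 14290059), was at 21.96, 24.5 and 30.95 CPM against 40.4, 67.7 and 121 (log2 difference 1.60, edgeR adjusted p = 0.00078). These 3 did not overlap between the groups. The other 5 overlapped: the trefoil factor gene TFF2 at 1.83, LRRC63 at 1.82, DPY19L4 at 1.79, the TIE2 ligand gene ANGPT1 at 1.69 and the fatty acid binding protein gene FABP2 at 1.61 (edgeR, adjusted p between 0.0248 and 0.0467). The lncRNA LOC132345658, at 0.0882 to 1.44 CPM in group 1 and 2.39 to 8.72 in group 2, had a difference of 2.65 (edgeR, adjusted p = 0.00564).

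The 12 largest called decreases held 2 antimicrobial peptides. The beta-defensin gene DEFB7 (chromosome 27, 6676383 to 6678273) was at 60.7, 93.5 and 143 CPM in group 1 and 9.59, 32.1 and 41.3 in group 2, without overlap. Its log2 difference was -1.75 ± 0.29 (SE; edgeR, adjusted p = 0.00388), and it stayed called without animals 16, 32 and 36. DEFB13, on the same chromosome, was at 59.0, 126 and 350 CPM against 15.3, 57.2 and 74.8 (log2 difference -1.57, edgeR adjusted p = 0.0256). All 5 beta-defensin genes that could be tested had a negative difference, a family picked out after its values were seen. The family holds close copies, which makes single members uncertain. With animal 20 added to group 2 the difference of DEFB7 was -0.45 and no longer called.

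Among the other large decreases, LIPA, the lysosomal acid lipase gene, was at 79.3, 110 and 141 CPM in group 1 and 12.6, 44.03 and 66.1 in group 2 (log2 difference -1.32, edgeR adjusted p = 0.0138). PLBD1, a phospholipase of myeloid granules, was at 62.0, 107 and 177 CPM against 10.0, 42.2 and 58.1 (log2 difference -1.50, edgeR adjusted p = 0.0144). The groups did not overlap for either. ANG2, an angiogenin ribonuclease gene, the GTPase regulator gene DLC1, TTYH2, MANSC1 and IQCD fell by 1.41, 1.38, 1.49, 1.34 and 1.53 on the log2 scale (edgeR, adjusted p between 0.0144 and 0.0231). LTF, the neutrophil granule protein lactoferrin, was the only gene of 17 tested in the neutrophil list to pass (log2 difference -1.90, edgeR adjusted p = 0.0176), at 1.74 to 4.74 CPM in group 1 and 0.133 to 1.93 in group 2.

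Other large decreases came from few calves. IGFLR1, a receptor gene for IGF-like proteins (chromosome 18, 46454241 to 46456865), had the largest negative difference, -4.52 ± 1.27 (SE; edgeR, adjusted p = 0.0404). It was at 39.7 CPM in animal 19 and 58.4 in animal 41, and at 0.288 to 1.59 in the other 11 calves. In the Takara 6PM libraries the same calves were again highest, with 24.9 CPM in animal 19 and 33.1 in animal 41, followed by 8.10 in animal 15. ALOX15, a lipoxygenase gene of eosinophils, was at 342 CPM in animal 18, at 13.04 to 49.7 in the other 6 calves of group 1 and at 0.218 to 20.96 in group 2. Its difference was -3.15 (edgeR, adjusted p = 0.0411) and -1.73 without animal 18, not called. ADORA3, an adenosine receptor gene, was also highest in animal 18 (30.1 CPM) but did not overlap between the groups, at 3.25 CPM or more in group 1 and 2.51 or less in group 2 (log2 difference -2.56, edgeR adjusted p = 0.0148). Without animal 18 the difference of ADORA3 was -1.84, still called.

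The remaining lists held few calls, to be read beside the 8.13% of all genes called. In the cholesterol list of 25 tested genes, 3 passed, all lower. Among them, INSIG1, which holds the sterol sensor in the endoplasmic reticulum, and squalene synthase FDFT1 fell by 0.73 and 0.63 on the log2 scale (edgeR, adjusted p = 0.0181 and 0.037). That count was 1 without any one of animals 12, 14, 15, 18, 23, 32, 36, 40 and 41, 5 without animal 7, and 0 without animals 16, 32 and 36. It was 9 with total counts as library size and 1 with the unmapped share as a covariate. Among clock genes, CLOCK itself was at 11.2, 12.2 and 14.4 CPM in group 1 and 18.7, 20.8 and 25.96 in group 2, without overlap (log2 difference 0.79, edgeR adjusted p = 0.00227), and TEF was higher by 1.09 (adjusted p = 0.0391), out of 17 tested. KLF9, a glucocorticoid-induced transcription factor gene, was at 0.441, 0.775 and 0.955 CPM against 1.43, 2.66 and 3.98 (log2 difference 1.83, edgeR adjusted p = 0.00387). In the same list of 20 tested genes, CD163 was the other call.

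Of 23 immediate early genes tested, EGR3 was higher (1.32) and BTG2 and IER2 lower (-0.66 and -0.54; edgeR, adjusted p = 0.0491, 0.0201 and 0.0397). Of 28 genes of glycolysis and hypoxia, the hexokinase gene HK1 was higher (0.65) and the myeloid hexokinase gene HK3 lower (-1.04; edgeR, adjusted p = 0.0141 and 0.0494). The endoplasmic reticulum chaperone gene HSPA5 was the only call of 27 heat shock genes (-0.55, edgeR adjusted p = 0.0402). Of 82 cytosolic ribosomal protein genes tested, 3 were called, all higher, RPS10 and RPLP1 among them (0.58 and 0.63), a smaller share than the 5.07% of all genes called higher. In Takara 74 of the 82 differences were positive (median 0.24), and in Lexogen 70 of 82 were negative (median -0.25).

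Single calls from the cell type lists were the killer-cell receptor gene KLRK1 (0.98, of 19 tested) and the red cell membrane gene EPB42 (1.63, of 13), both higher. TCF4, a transcription factor of plasmacytoid dendritic cells, was the only call of 10 in the dendritic cell list, also higher (0.75). ID3, the only call of 7 in the gamma-delta T cell list, was lower (-0.80). In the list for eosinophils, basophils and mast cells, 2 of 9 were called, in opposite directions. GATA2, a transcription factor of basophils and mast cells, was higher (1.20), and ALOX15, given above, was lower. Of these 9 differences, 6 were negative. For KLRK1, EPB42, TCF4, ID3 and GATA2 the adjusted p lay between 0.00471 and 0.0498 (edgeR). TCF4 was at 51.0, 66.4 and 88.98 CPM in group 1 and 104, 111 and 136 in group 2, without overlap. No gene was called in the lists for T cells (23 tested), B cells (17), plasma cells (8), interferon response (39), acute inflammation (22), MHC class I (18) or MHC class II (14) by edgeR. Of these 141 genes, 19 had an unadjusted p under 0.05 and DESeq2 called 3, PAX5, DHX58 and CCL2.

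In the Lexogen libraries of the 6AM blood, split the same way, no gene of 11844 passed edgeR's test (0% called), 1056 had an unadjusted p under 0.05, and DESeq2 called 111. The standard errors were larger there, with a median of 0.49 against 0.21 in Takara. Of the 1055 Takara calls, 1022 could be tested in Lexogen and 722 (70.6%) had the same direction, beside 57.8% over all 11424 genes tested in both kits, and 136 (13.3%) had the same direction with an unadjusted p under 0.05, beside 6.14% over all genes tested in both. The libraries of the kits came from the same RNA in 12 calves, so this compares kits and does not add calves. The interaction of kit and calf group, fitted in these 12 calves, gave no called gene of 13711 (1345 at an unadjusted p under 0.05, edgeR). On simulated data this test recovered 50 of 200 genes changed 4-fold. The lack of calls therefore cannot show that the kits gave the same differences.

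PF4 was at 258, 453 and 1063 CPM in the Lexogen libraries of group 1 and at 640, 1612 and 2345 in group 2, a log2 difference of 1.35 (edgeR, unadjusted p = 0.000638) close to its Takara difference of 1.05. The other platelet genes did not follow as a list, with a median of -0.14 over 13 genes. CD14 and CD163 differed by -1.14 and -0.76 in Lexogen (edgeR, unadjusted p = 0.0398 and unadjusted p = 0.035), LIPA by -0.85 (unadjusted p = 0.0285) and ID3 by -1.004 (unadjusted p = 0.00713), and the monocyte list had a median of -0.49 with 14 of 16 negative. MAML2 differed by 0.59 (unadjusted p = 0.00999), and LOC112448016, LOC132345101, LOC104973760 and LOC132342211 by 1.11, 0.68, 0.73 and 0.80 (unadjusted p between 0.000998 and 0.00858). MBP differed by -0.01 in Lexogen (unadjusted p = 0.991), EXD1 by 0.22 (unadjusted p = 0.785) and CLOCK by -0.02 (unadjusted p = 0.953). None of these Lexogen values passed the adjusted threshold.

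In the Takara libraries of the 6PM blood after heat stress, no gene of 12441 was called (0%; 522 at an unadjusted p under 0.05 with edgeR, 41 called by DESeq2), and 30.4% of the 1031 testable 6AM calls kept their direction, beside 42.4% of all 12237 genes tested at both times. The median standard error was 0.28 at 6PM against 0.21 at 6AM. On simulated data edgeR recovered 20 of 100 genes changed 2-fold at 6PM, against 60 of 100 at 6AM. In 12 calves both draws were sequenced with Takara. A total of 19 of the 6AM calls (1.84%) had the same direction with an unadjusted p under 0.05, a share near the 1.72% over all genes tested at both times. Of the 19, 6 were histone genes. H1-4 was at 42.3, 118.5 and 192 CPM in group 1 and 149, 312 and 429 in group 2, a difference of 1.44 (edgeR, unadjusted p = 0.000212). H1-3, H1-12 and H2AC20 differed by 1.34, 1.32 and 1.04 (edgeR, unadjusted p between 0.000137 and 0.0013). The histone list had a median of 0.43 at 6PM with 50 of 58 positive.

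In Lexogen, H1-4 differed by 0.94 at 6AM (edgeR, unadjusted p = 0.011) and by 1.44 at 6PM (unadjusted p = 0.0189), while H2AC20 differed by 0.01 at 6AM (unadjusted p = 0.992). The Lexogen histone list had medians of -0.16 at 6AM and 0.25 at 6PM, the first opposite in sign to Takara. No gene of 11374 was called in the Lexogen 6PM libraries (edgeR, 362 at an unadjusted p under 0.05, 20 called by DESeq2). Of the 6AM calls, only H1-4 and XPO1, a nuclear export receptor gene named after its values were seen, had the same direction with an unadjusted p under 0.05 in the Takara 6AM, Lexogen 6AM and Takara 6PM libraries. XPO1 differed by 0.64, 0.46 and 0.42 in the 3 sets (edgeR), and by -0.17 in the Lexogen 6PM libraries (edgeR, unadjusted p = 0.645).

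**Figure D4:**
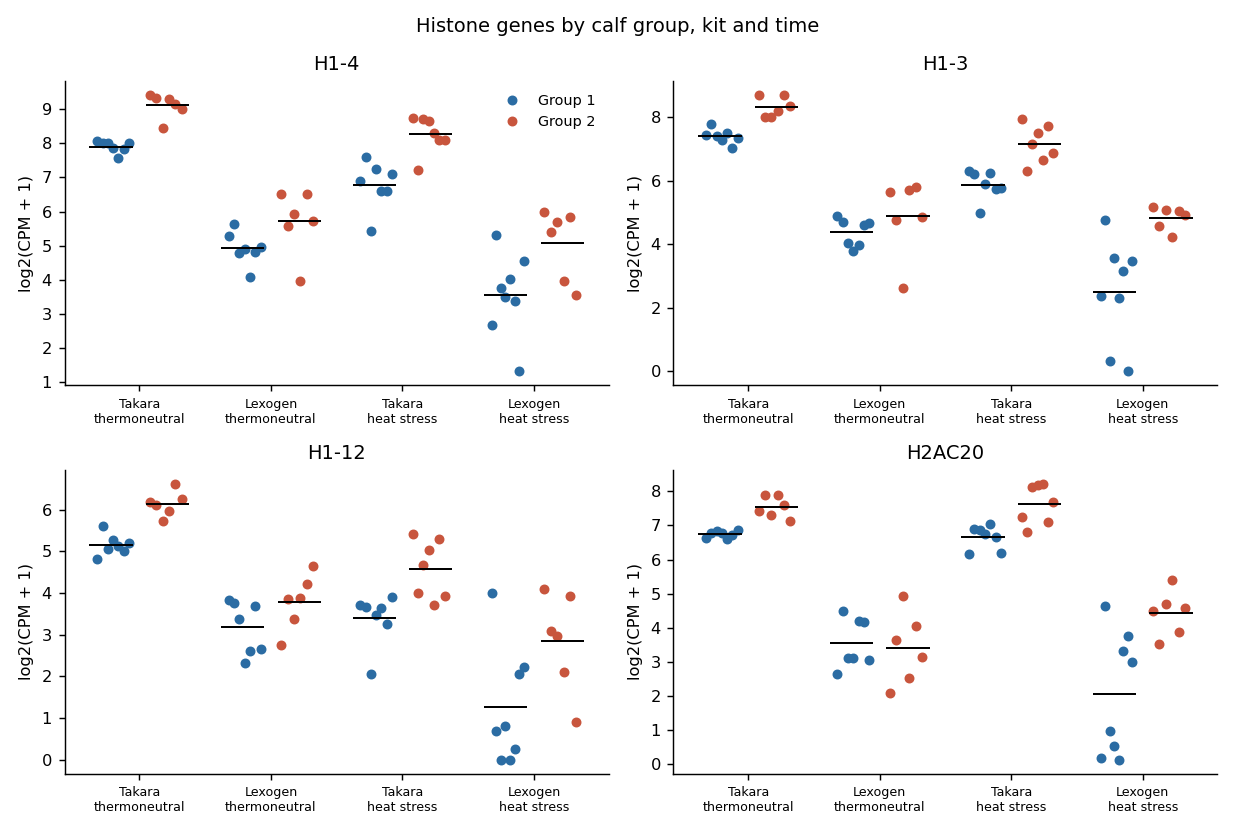
log2(CPM + 1) of 4 histone genes in every library of group 1 (blue) and group 2 (red), by kit and time; lines are group means. In Takara, H1-4 sits higher in group 2 at 6AM (349 to 681 against 187 to 267 CPM) and again at 6PM (149 to 429 against 42.3 to 192 CPM).

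Other differences had the opposite sign at 6PM. The calf group difference changed with time for 177 of 13722 genes (1.29%) in the 12 calves with Takara libraries at both times (edgeR, interaction of time and calf group with the calf as a block). Of the 1055 genes called at 6AM, 137 were among them, all with an interaction of opposite sign to their 6AM difference. Both tests use the same 6AM libraries, so this count is not independent of the calls. MBP, at 39.6, 87.7 and 161 CPM in group 1 and 9.92, 41.9 and 62.7 in group 2 at 6PM, then had a log2 difference of -1.26 (edgeR, unadjusted p = 0.00995; interaction -3.21, adjusted p = 0.00908). MAML2 was at 34.2, 41.4 and 46.1 CPM against 14.3, 25.5 and 31.6 (-0.75, unadjusted p = 0.00052; interaction -2.38, adjusted p = 0.000435). CLOCK differed by -0.61 at 6PM (unadjusted p = 0.0122; interaction -1.34, adjusted p = 0.0306).

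None of the monocyte genes was called at 6PM by edgeR. CSF1R was at 27.6, 67.1 and 116.01 CPM in group 1 and 29.5, 74.3 and 135 in group 2 (log2 difference 0.30, edgeR unadjusted p = 0.393; interaction 1.95, adjusted p = 0.00978). The list median was 0.19 with 12 of 16 positive. CD14 and LIPA had interactions of 1.32 and 1.83 (edgeR, adjusted p = 0.0343 and 0.00908), and those of CD163 and CCR2 did not pass (0.308 and 0.197). The platelet list had a median of -0.28 at 6PM, with 13 of 14 negative and PF4 at -0.02 (unadjusted p = 0.944; interaction adjusted p = 0.272). Small nuclear, small nucleolar, ribosomal and long non-coding RNA genes had medians of 0.14, -0.12, -0.21 and -0.26 at 6PM. RN18S1, the 18S rRNA gene, was higher in group 2 at 6AM (0.87, edgeR adjusted p = 0.0163). At 6PM it had a difference of -1.28 (edgeR unadjusted p = 0.000556, interaction adjusted p = 0.00908).

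**Figure D5:**
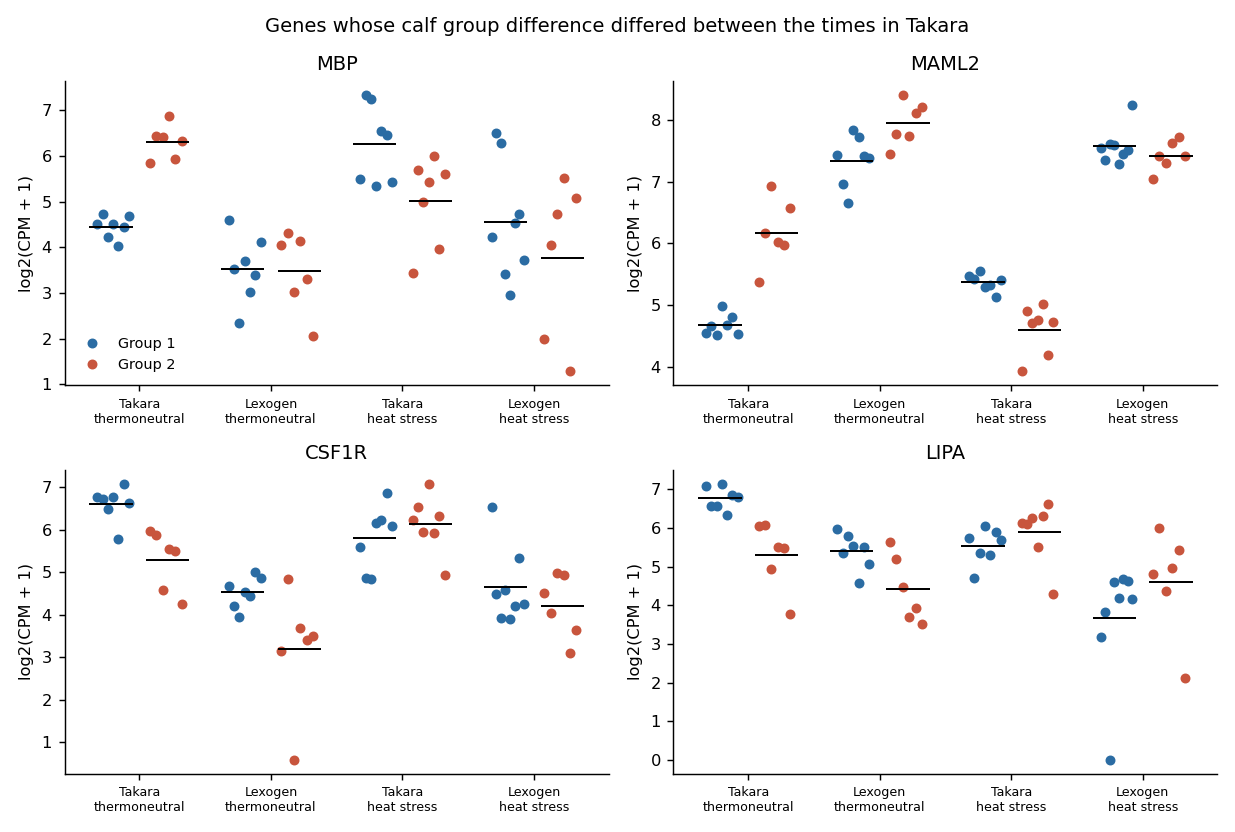
log2(CPM + 1) of MBP, MAML2, CSF1R and LIPA in every library of group 1 (blue) and group 2 (red), by kit and time; lines are group means. In Takara, the group means of MBP and MAML2 are higher in group 2 at 6AM and lower at 6PM, and those of CSF1R and LIPA are lower at 6AM.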

How the data were processed

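Whole blood RNA was sequenced with 2 kits of 3′ mRNA-seq. Trimming of the forward reads (Trimmomatic 0.39) and alignment to the bovine genome build ARS-UCD2.0 (STAR 2.7.10b) were done by the authors, who deposited STAR's raw counts per gene (32637 genes, with 4 totals of unassigned reads that were left out of library sizes and tests). The unstranded column was used. Reads carry no molecular identifiers, and the precision covers counting and calf spread only.

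Genes passing filterByExpr were tested with edgeR 4.0.16 (TMM, quasi-likelihood, Benjamini-Hochberg, adjusted p under 0.05) on calf group alone, in each set separately. The tool the study used, DESeq2 (1.42.0 here) on all expressed genes, was an alternative, as were other scalings, filters, the stranded column and left-out libraries. CPM use TMM library sizes. Library measures were compared with two-sided exact permutation tests. Interactions had the calf as a block. Tested on simulated data for the Takara 6AM comparison (12977 genes), edgeR recovered 60 of 100 genes changed 2-fold and 93 of 100 changed 4-fold; for Lexogen 6AM (11844 genes), 15 and 45 of 100. Of the gene IDs, 30284 matched the RefSeq table of the same build by symbol or locus tag.

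Named genes were the 12 largest called differences each way with a symbol and at least 5 CPM in a group, any uncharacterised gene among the 3 largest, and up to 4 members per list or class with the smallest p. The members and lists were chosen with earlier results of these data known. Nothing in the labels says that calves of a group are more than separate animals of one run of sample numbers, and p-values measure the spread between calves. No libraries held identical counts. Variants were not analysed here, and a few called genes are not reported here by name. Within each kit all libraries were pooled and sequenced on 1 flow cell.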

Additional observations from a re-analysis of the deposited data

Results flagged for a closer look

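In 180 sets of values of 1 group (the genes named above and the 20 library measures, Takara 6AM), 10 had 1 calf far from the rest by Dixon's test, 5.56 per 100, where chance gives about 1 in 20. In group 1 these were ALOX15 and ADORA3 in animal 18 (342 and 30.1 CPM, others 13.04 to 49.7 and 3.25 to 6.97), TTYH2 in animal 12 (31.9 CPM, others 8.73 to 16.1), HSPA5 in animal 41 (391 CPM, others 265 to 303) and the number of expressed genes in animal 12 (16446, others 17050 to 17450). In group 2 they were PF4 in animal 14 (6526 CPM, others 2480 to 3155), VRK2 in animal 32 (9.21 CPM, others 3.42 to 5.50), IQCD and DLC1 in animal 16 (3.98 and 4.64 CPM, others 1.16 to 1.81 and 1.81 to 2.61) and ND3 in animal 36 (1112 CPM, others 625 to 782).

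For 13 of the 70 genes named, the change from 6AM to 6PM in Takara differed between the calf groups in a test of that difference (edgeR interaction, group 2 minus group 1, adjusted p between 0.000435 and 0.0347). Over all genes tested the share was 1.29% (177 of 13722). The 70 genes were named for their 6AM differences and the test uses the same 6AM libraries, so the 13 are not independent support. All 13 interactions were opposite in sign to the 6AM difference. The log2 change was more positive in group 2 for CSF1R (1.95), LIPA (1.83), PLBD1 (1.79) and CD14 (1.32). It was more negative for LOC132345658 (-3.78), MBP (-3.21), LOC104973760 (-2.64), MAML2 (-2.38), LOC112448016 (-2.36), LOC132345101 (-2.28), LOC132342211 (-2.20), CMIP (-1.64) and CLOCK (-1.34).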

How the results depend on the processing

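The count of 1055 calls became 317 with animal 20 added to group 2, 135 without animals 16, 32 and 36, 642 with the unmapped share as a covariate and 656 in the calves with both kits, the last 3 being alternatives chosen after seeing the data. By the labels the library of animal 20 is 6PM blood after heat stress, so adding it to the 6AM libraries mixes times and conditions. With 1 library left out it lay between 503 and 1497. DESeq2 called 1581 genes in Takara at 6AM, and 111, 41 and 20 in Lexogen at 6AM, Takara at 6PM and Lexogen at 6PM, where edgeR called 0 (1056, 522 and 362 at an unadjusted p under 0.05). Library measures that differed numbered 4 to 9 with 1 library left out and 0 without animals 16, 32 and 36, where 5 had an unadjusted p under 0.05. With animal 20 added, the differences of LTF and BTG2 were 0.24 and 0.10, opposite in sign. The cause was not tested. No sign changed in the 70 named genes under the other alternatives in which they could be tested. Those genes were called in the main fit and the alternatives reuse most of its libraries, so kept signs were likely in advance. No paired analysis was possible because the 2 groups hold different calves. Precision was lower in Lexogen: at 6AM, simulated 2-fold changes were recovered in 15 of 100 genes there and in 60 of 100 in Takara. At 6PM they were recovered in 1 of 100 genes in Lexogen and in 20 of 100 in Takara.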
